A study of Mus musculus with 6 samples.

Results

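Fatty acids for new membranes and for lipid signals are built from acetyl-CoA by a short chain of enzymes. Of the 10 genes described here, Acly, Acss2 and Me1 supply acetyl-CoA and reducing power. Acaca and Fasn build the saturated chain, Elovl6 lengthens it, and Scd1 and Scd2 place a double bond in it. Fads1 and Fads2 encode desaturases of polyunsaturated fatty acid synthesis. The 10 genes were picked by gene symbol from a table of 27179 genes, and all 10 were present, each as a single row. RNA was measured by poly(A) sequencing in cerebral cortex of C57BL/6N mouse embryos at E18.5, shortly before birth, with the question of what CAP1, an actin-binding protein, does to gene expression in neurons. The CAP1-KO group (n = 3; libraries FCRE3, FCRE4 and FCRE5) had the genotype Cap1flx/flx,Nestin-CRE, in which the Nestin promoter drives Cre recombinase in neural progenitors. The Control group (n = 3; libraries FF1, FF2 and FF4) was Cap1 flx/flx, so both groups carried the floxed alleles. Cre was present in CAP1-KO alone, so an effect of the transgene and an effect of Cap1 deletion cannot be told apart.

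As background, SREBP1 (gene Srebf1) is a transcription factor made as a membrane precursor. SCAP escorts it from the endoplasmic reticulum to the Golgi, where it is cut to release its active part, and the INSIG proteins hold SCAP back. SREBP1 is best known for driving fatty acid genes, and its relative SREBP2 (Srebf2) for driving sterol genes, with overlap between them. In the developing brain, glial cells and growing neurons make much of their own fatty acid and sterol, and Scd2 is the main stearoyl-CoA desaturase gene of mouse brain.

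Each library held between 32443864 and 36302598 recovered reads, so 1 CPM, the library-scaled unit of read counts used throughout, stood for 31.2 to 37.3 reads. Cap1 had 86.6, 85.9 and 82.9 CPM with the Cre transgene, against 194, 193 and 166 CPM without it (log2 fold change -1.10, limma, Benjamini-Hochberg adjusted p = 0.000283). Xist was at 2398 to 2653 CPM in all CAP1-KO libraries and at 2296 CPM in FF2, but at 0.577 CPM in FF1 and 2.05 CPM in FF4, so embryo sex was not balanced. FF4 also stood apart in its cell type markers: the summed level of 10 projection neuron markers was 2212, 2132 and 2318 CPM in the CAP1-KO group, against 3066 CPM in FF1, 3134 CPM in FF2 and only 2180 CPM in FF4. Results below are therefore also given without FF4 and against FF4 alone.

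All 10 enzyme genes were lower in CAP1-KO than in Control, at 63.6 to 88.1% of the Control mean, and for each of them the highest CAP1-KO value was under the lowest Control value. Such complete separation downwards was seen in 14.6% of the 13885 genes tested. The 10 genes were chosen with earlier results of these data known, so setting them beside all genes here is a description and no test. No enzyme gene passed the test over all genes: 0 of 10 were called lower and 0 of 10 higher (limma with an intensity trend on log2(CPM + 1), adjusted p under 0.05), where 0.403% of all tested genes were called lower and 0.562% higher. With limma-voom on the recovered reads 0 of 10 were called lower as well, against 0.382% of all genes. Their adjusted p-values ran between 0.0631 (Acly) and 0.172 (Me1), and all 10 had an unadjusted p under 0.05, which 15.3% of all tested genes had in the downward direction. The median log2 fold change of the 10 was -0.32, and that of all tested genes -0.01, of which 51.7% were negative. In whole tissue, fewer cells of a type and less RNA per cell cannot be told apart.

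**Figure D1:**
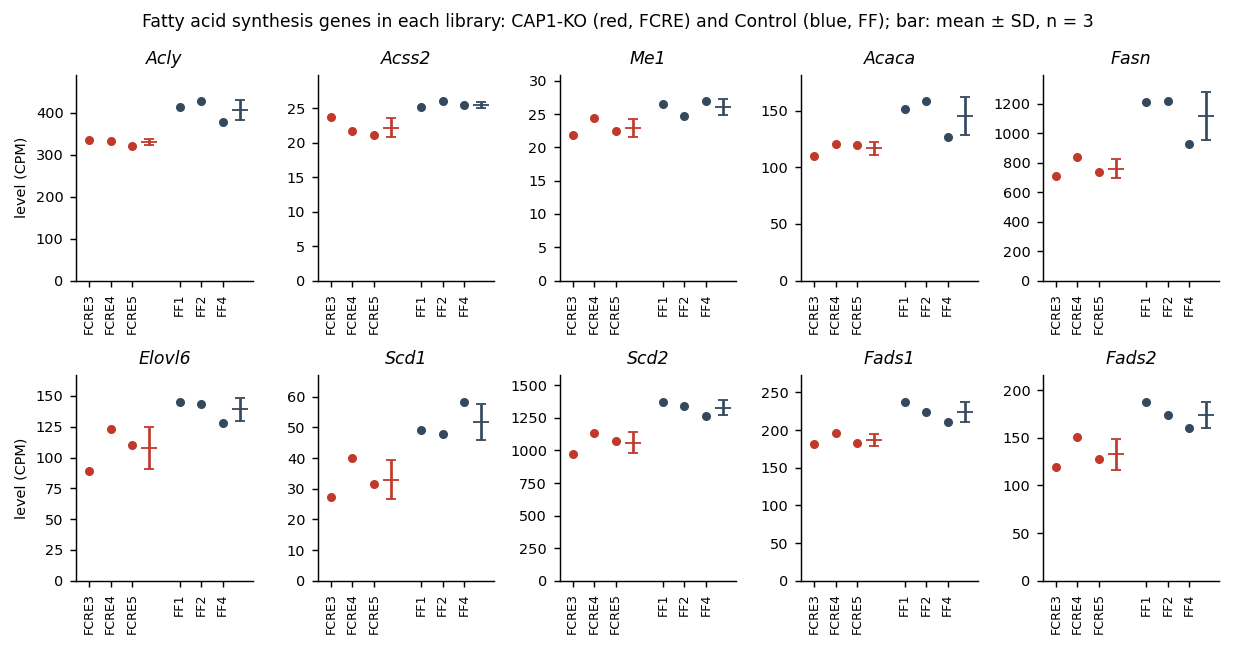
Level of each of the 10 enzyme genes in CPM (vertical axis, starting at 0) in each CAP1-KO library (red) and Control library (blue), with the mean ± SD of 3 libraries beside them. In every panel the red points lie below the blue ones; the narrowest gap is that of Me1, where FCRE4 had 24.5 CPM and FF2 24.7 CPM.

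Gene positions are given on GRCm38. Acly, Acss2 and Me1 feed the pathway, and their CAP1-KO levels were 81.1 to 88.1% of those in Control. Acly (gene ID 104112, chr11:100476352-100528000) encodes ATP citrate lyase, which splits citrate into acetyl-CoA and oxaloacetate in the cytosol. It measured 334, 333 and 321 CPM in FCRE3, FCRE4 and FCRE5, against 413, 427 and 379 CPM in FF1, FF2 and FF4. The CAP1-KO libraries were closely grouped, 44.6 CPM below the lowest Control library, FF4. Its log2 fold change was -0.30 (SE 0.06, 95% interval -0.43 to -0.16, limma adjusted p = 0.0631), the lowest adjusted p of the 10. Acss2 (gene ID 60525, chr2:155518043-155562743), which makes acetyl-CoA from acetate, had 23.7, 21.7 and 21.1 CPM in CAP1-KO, against 25.1, 26.0 and 25.4 CPM in the Control libraries. FCRE3 was the highest CAP1-KO library here, 1.43 CPM below FF1 (log2 fold change -0.20, SE 0.06, limma adjusted p = 0.133). Me1 (gene ID 17436, chr9:86581363-86695914) encodes cytosolic malic enzyme, a source of NADPH. It measured 21.9, 24.5 and 22.4 CPM in CAP1-KO and 26.5, 24.7 and 26.9 CPM in Control, so that FCRE4 and FF2 lay only 0.176 CPM apart (log2 fold change -0.18, SE 0.07, limma adjusted p = 0.172).

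Acaca and Fasn carry out the synthesis itself, and Fasn had the larger difference. Acaca (gene ID 107476, chr11:84129635-84401651) encodes acetyl-CoA carboxylase, which makes malonyl-CoA, the committed step. It measured 109.9, 121 and 119 CPM in FCRE3, FCRE4 and FCRE5, against 152, 158 and 127 CPM in FF1, FF2 and FF4. FF4 lay close to the CAP1-KO libraries, 5.87 CPM above FCRE4, while FF1 and FF2 were well above (log2 fold change -0.31, SE 0.09, 95% interval -0.51 to -0.11, limma adjusted p = 0.111). Fasn (gene ID 14104, chr11:120805958-120825166), fatty acid synthase, builds palmitate from acetyl-CoA and malonyl-CoA. It measured 709.5, 836 and 737 CPM in the CAP1-KO group (761 ± 66.5), against 1211, 1217 and 928 CPM in the Control libraries (1119 ± 166; SD, n = 3 each). Again FF4 was the lowest Control library, 91.5 CPM above FCRE4, and 68.0% of the Control mean remained in CAP1-KO (log2 fold change -0.55, SE 0.12, 95% interval -0.82 to -0.27, limma adjusted p = 0.0816).

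Elovl6 (gene ID 170439, chr3:129532386-129638495), the elongase that turns palmitate-length chains into stearate-length ones, was spread widely among the CAP1-KO libraries. It measured 89.2, 123 and 110.1 CPM in FCRE3, FCRE4 and FCRE5, against 145, 144 and 128 CPM in FF1, FF2 and FF4. The gap between FCRE4 and FF4 was 5.14 CPM, and FCRE3 was far below both (log2 fold change -0.38, SE 0.11, 95% interval -0.64 to -0.12, limma adjusted p = 0.118).

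Scd1 and Scd2 encode stearoyl-CoA desaturases, which make monounsaturated fatty acids. Scd2 (gene ID 20250, chr19:44293676-44306864) measured 971, 1130.3 and 1074 CPM in the CAP1-KO group (1059 ± 80.7), against 1374, 1344 and 1263 CPM in the Control libraries (1327 ± 57.1; SD, n = 3 each). The groups were 133 CPM apart at their nearest (log2 fold change -0.33, SE 0.08, 95% interval -0.51 to -0.15, limma adjusted p = 0.0910). Scd1 (gene ID 20249, chr19:44394450-44407709) measured 27.4, 39.9 and 31.5 CPM in CAP1-KO and 49.1, 47.8 and 58.4 CPM in Control, with 63.6% of the Control mean left (log2 fold change -0.65, SE 0.13, 95% interval -0.96 to -0.33, limma adjusted p = 0.0752). As a fold this was the furthest from 0 of the 10 with all libraries, but Fasn was further without FF4 (-0.68 for Fasn and -0.56 for Scd1), with the female libraries only and with the Xist covariate. Here FF4 was the highest Control library, unlike for Fasn, Acaca and Scd2. Per length, Scd1 made up 3.09, 3.83 and 3.20% of the Scd1 and Scd2 signal (CPM per kilobase) in FCRE3, FCRE4 and FCRE5, and 3.88, 3.86 and 4.96% in FF1, FF2 and FF4, so FCRE4 and FF2 were almost equal. Scd3, another stearoyl-CoA desaturase gene, was near the 1 CPM limit of the test, at 1.44 to 1.93 CPM in CAP1-KO and 1.19 to 2.15 CPM in Control.

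Fads1 and Fads2 lie near each other on chromosome 19 and encode the delta-5 and delta-6 desaturases of polyunsaturated fatty acid synthesis. Fads1 (gene ID 76267, chr19:10182877-10196874) measured 181, 197 and 183 CPM in CAP1-KO, against 238, 225 and 211 CPM in the Control libraries (log2 fold change -0.26, SE 0.06, 95% interval -0.40 to -0.12, limma adjusted p = 0.0869). Fads2 (gene ID 56473, chr19:10062765-10101503) measured 119.6, 151 and 128 CPM in CAP1-KO and 188, 174 and 160.0 CPM in Control (log2 fold change -0.39, SE 0.09, 95% interval -0.61 to -0.17, limma adjusted p = 0.0933). Both genes had FCRE4 as their highest CAP1-KO library and FF4 as their lowest Control library. The gap there was 14.3 CPM for Fads1 and 9.25 CPM for Fads2. Another gene of that cluster, Fads3, measured 33.9, 40.3 and 35.2 CPM in CAP1-KO and 43.1, 41.5 and 41.4 CPM in Control (log2 fold change -0.20, limma adjusted p = 0.150).

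Compared per length (CPM per kilobase of merged exons), the genes had the same order of levels in both groups. In CAP1-KO the order was Scd2 (194 ± 14.8 CPM per kilobase), Fasn (75.7 ± 6.62), Acly (71.4 ± 1.64), Fads1 (54.0 ± 2.46), Fads2 (42.1 ± 5.12), Elovl6 (17.5 ± 2.77), Acaca (12.3 ± 0.616), Scd1 (6.82 ± 1.31), Me1 (6.36 ± 0.377) and Acss2 (5.80 ± 0.351; SD, n = 3). In Control Scd2 had 243 ± 10.5 CPM per kilobase, Fasn 111 ± 16.5, Acly 88.1 ± 5.37, Fads1 64.8 ± 3.83, Fads2 55.2 ± 4.41, Elovl6 22.7 ± 1.56, Acaca 15.3 ± 1.75, Scd1 10.7 ± 1.19, Me1 7.21 ± 0.335 and Acss2 6.67 ± 0.115 (SD, n = 3). Fasn and Acly lay within the SD of Fasn in CAP1-KO, and Scd1, Me1 and Acss2 within the SD of Scd1, while in Control Fasn stood above Acly and Scd1 above Me1 by more than their SDs.

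Promoter windows were compared because the enzyme genes were all lower together. RefSeq windows of GRCm38.p6 (250 bases before to 50 after a transcription start) were at hand for 7 of the 10 genes, and not used here for Scd1, Scd2 and Fads1. The windows of Fasn (the most strongly expressed of the 7), Acly (the lowest adjusted p) and Insig1 (the SREBP feedback gene, called lower) are printed on the strand of the gene, with capitals marking the NF-Y motif CCAAT, the GC box GGGCGG and the E-box CACGTG on either strand.
Fasn, chr11:120824498-120824797, minus strand: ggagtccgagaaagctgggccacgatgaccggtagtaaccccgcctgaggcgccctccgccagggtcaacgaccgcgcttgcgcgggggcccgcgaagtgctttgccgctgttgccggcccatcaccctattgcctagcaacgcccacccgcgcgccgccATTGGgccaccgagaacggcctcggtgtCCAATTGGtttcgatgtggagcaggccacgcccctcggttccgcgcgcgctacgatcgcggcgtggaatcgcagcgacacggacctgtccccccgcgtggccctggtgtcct
Acly, chr11:100527951-100528250, minus strand: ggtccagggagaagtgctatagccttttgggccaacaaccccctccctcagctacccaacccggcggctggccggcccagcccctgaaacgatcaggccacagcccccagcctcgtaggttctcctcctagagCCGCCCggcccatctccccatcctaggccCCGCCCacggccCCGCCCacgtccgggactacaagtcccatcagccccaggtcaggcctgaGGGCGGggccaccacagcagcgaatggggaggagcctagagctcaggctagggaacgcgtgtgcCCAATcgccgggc
Insig1, chr5:28071162-28071461, plus strand: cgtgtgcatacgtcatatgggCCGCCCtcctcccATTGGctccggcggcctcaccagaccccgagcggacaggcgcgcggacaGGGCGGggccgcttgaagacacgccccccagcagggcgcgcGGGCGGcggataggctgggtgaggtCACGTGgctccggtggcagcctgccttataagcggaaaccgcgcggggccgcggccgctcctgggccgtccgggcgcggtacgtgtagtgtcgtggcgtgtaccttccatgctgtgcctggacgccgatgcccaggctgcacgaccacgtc

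Fasn had 3 NF-Y motifs, an overlapping pair among them on opposite strands, and 0 GC boxes. Acly had 1 NF-Y motif and 4 GC boxes, and Insig1 had 1 NF-Y motif, 3 GC boxes and 1 E-box. Of the 8 windows of the 7 enzyme genes, Me1 having 2, 4 held a CCAAT motif and 4 a GC box, against 37.4% and 35.7% of all 32851 windows. The Acaca window (chr11:84195188-84195487) and the Me1 window with CCAAT (chr9:86687228-86687527) lie far inside these genes, at internal transcription starts. The letters of the sterol response element TCACNCCAC (either strand) were in 0 of the 8 windows of the enzyme genes, against 1.24% of all windows. The E-box was also in 0 of the 8, against 7.15%. Insig1 had 0 sterol response elements too. For motifs this rare, 0 of 8 windows does not set the enzyme genes apart. These are letter matches in short windows and say nothing of binding.

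Within the groups, most but not all enzyme genes shared their highest and lowest libraries. FCRE3 had the lowest CAP1-KO value for 8 of the 10 (Acaca, Fasn, Scd1, Scd2, Elovl6, Fads1, Fads2 and Me1), and FCRE4 the highest for the same 8, while 33.5% of all tested genes were lowest in FCRE3 and 38.3% highest in FCRE4. Acly and Acss2 were highest in FCRE3. FF4 was the lowest Control library for 7, all but Scd1, Acss2 and Me1, and for 48.4% of all tested genes. The highest Control value was in FF1 for 4 enzyme genes, in FF2 for 4 and in FF4 for 2 (Scd1 and Me1). Averaged over the 10 genes, the log2 level differed from the Control mean by -0.45, -0.24 and -0.37 in FCRE3, FCRE4 and FCRE5 and by 0.05, 0.03 and -0.07 in FF1, FF2 and FF4. FF4 thus lay below the other Control libraries and above all CAP1-KO libraries on this average. The genes outside the 10 whose levels followed their mean profile most closely over the 6 libraries were Necab1, Shisa7, Rara, Wsb2 and Pcdhga1 (Pearson r between 0.998 and 0.999). With 6 points that share the group difference such values are common: 501 of 13875 other genes reached at least 0.95.

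Leaving out single libraries changed the number of enzyme genes called, though all 10 log2 fold changes were negative in each of the 15 alternatives run. Without FF4, 8 of 10 were called lower (all but Acss2 and Me1), where 18.9% of all tested genes were called lower. Without FCRE4, Scd1 and Fads2 were called, against 1.26% of all genes. Without FCRE3, FCRE5, FF1 or FF2 the count was 0. Against FF4 alone, 0 of 10 were called, against 0.0864% of all genes. The spread of the lone FF4 library is assumed there to be that of the CAP1-KO group. Each of the 10 genes was lower in all 3 CAP1-KO libraries than in FF4, which held for 27.9% of tested genes. In that comparison the log2 fold change of Fasn was -0.29 and that of Acaca -0.12, nearer to 0 than with all Control libraries, and that of Scd1 was -0.82.

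Embryo sex was examined by comparing the female libraries alone and by adding the Xist level to the fit. Between the 3 CAP1-KO libraries and FF2, the female Control library, Acly, Acaca, Fasn, Scd2 and Fads1 were called lower (5 of 10, where 8.53% of all genes were); the lone Control library is assumed there to vary like the CAP1-KO libraries. The log2 fold changes in that comparison were -0.68 for Fasn, -0.44 for Acaca, -0.37 for Acly, -0.35 for Scd2 and -0.26 for Fads1, and Me1 was nearest to 0 at -0.10. With the Xist level as a covariate 0 of 10 were called, against 0.0216% of all genes, and the median of the 10 was -0.38. Since FF2 is the only Control library with high Xist, this fit also rests largely on FF2 and is not a separate check. Its log2 fold changes were close to those of the female libraries, such as -0.66 for Fasn and -0.43 for Acaca.

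**Figure D2:**
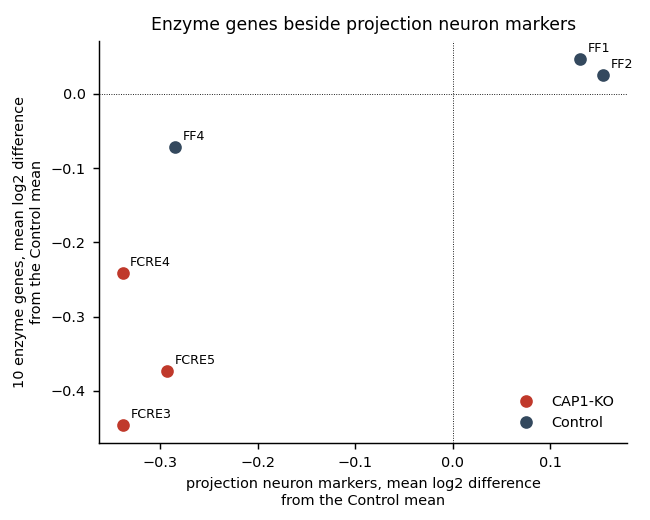
Mean log2 difference from the Control mean for the 10 enzyme genes (vertical axis) beside that of 10 projection neuron markers (horizontal axis), 1 point for each library. FF4 is at -0.28 on the horizontal axis, next to the CAP1-KO libraries at -0.34, -0.34 and -0.29, and at -0.07 on the vertical axis, above them.

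Levels of cell type markers are given beside the comparison. All 10 projection neuron markers tested had a negative log2 fold change, with a median of -0.34 and 0 called by limma (4 with an unadjusted p under 0.05). The 9 tested oligodendrocyte lineage markers, a lineage with high lipid synthesis, had a median of -0.11 and 0 called by limma (3 lower with an unadjusted p under 0.05), with a summed level of 193 to 245 CPM in CAP1-KO and 228 to 252 CPM in Control. The 9 tested astrocyte markers had a median of 0.03 and a summed level of 581 to 702 CPM in CAP1-KO and 511 to 681 CPM in Control, and the 10 radial glia markers 1336 to 1401 CPM in CAP1-KO and 1349 to 1522 CPM in Control. Of 12 endothelial markers 2 were called lower (Flt1 and Kdr; 0.403% of all tested genes were), 0 without FCRE3, FCRE5 or FF1, 1 without FCRE4 or FF2 and 6 without FF4, with sums of 204 to 234 CPM in CAP1-KO and 254 to 270.4 CPM in Control. Microglia and macrophage markers summed to 59.4 to 83.0 CPM in CAP1-KO and 38.7 to 52.4 CPM in Control. Meningeal fibroblast markers summed to 19.8 to 101.9 CPM in CAP1-KO and 18.0 to 18.9 CPM in Control, with FCRE3 at the low end. Choroid plexus markers, of which Ttr was called higher, summed to 55.2 to 119.8 CPM in CAP1-KO and 2.89 to 7.61 CPM in Control. Striatal neuron markers (14 tested) had a median of 0.45 with 3 negative. Penk (1.66), Isl1 (1.30) and Six3 (1.01) had the highest log2 fold changes without being called. In FF4, Isl1 (37.7 CPM) lay above all CAP1-KO libraries, Six3 (19.4 CPM) within their range and Penk (24.6 CPM) below them. Ppp1r1b (-0.63) was called lower, and Drd1 (-0.22) was separated downwards without being called. Striatal markers summed to 919, 829 and 837 CPM in FCRE3, FCRE4 and FCRE5, against 738, 710.1 and 902 CPM in FF1, FF2 and FF4, so the FF4 sum lay within the CAP1-KO range. The part of these cell types in the lower enzyme gene levels was not tested. Adipocyte markers were near absent, with 0 of 8 reaching a mean of 1 CPM, a sum of 1.04 to 1.45 CPM over all libraries and Fabp4 at 0 reads.

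Of 21 genes listed for SREBP control, 1 was called lower, the feedback protein gene Insig1, where 0.403% of all tested genes were. The list is broad and also holds Pnpla3, Thrsp, Mid1ip1, Mlxipl and Mlx, so its counts do not describe SREBP regulators alone. Insig1 measured 47.1, 53.2 and 56.8 CPM in FCRE3, FCRE4 and FCRE5, against 75.1, 72.3 and 74.2 CPM in FF1, FF2 and FF4 (log2 fold change -0.49, SE 0.07, 95% interval -0.66 to -0.33, limma adjusted p = 0.0266). FF4 did not stand apart here, and the groups were clearly separated; the authors' deposited table gives it an FDR of 0.00953. The call was lost without FF1 (adjusted p = 0.150), without FF2 (adjusted p = 0.0925), without FCRE5 (adjusted p = 0.0505), against FF4 alone and with the Xist covariate in limma. Srebf1 itself, the gene of the factor that names this pathway, overlapped between groups, at 52.0, 43.2 and 49.9 CPM in CAP1-KO and 57.3, 55.9 and 49.9 CPM in Control (log2 fold change -0.17, 95% interval -0.36 to 0.03, limma adjusted p = 0.273). The overlap came from FF4, since FF1 and FF2 lay above every CAP1-KO library. Without FF4 the log2 fold change of Srebf1 was -0.23 (limma adjusted p = 0.0557), and against FF4 alone it was -0.05. Srebf2 measured 244, 266 and 245 CPM in CAP1-KO and 359.8, 343 and 285 CPM in Control (log2 fold change -0.38, limma adjusted p = 0.0913). Scap measured 98.2, 105.7 and 92.6 CPM in CAP1-KO and 122, 122 and 110.7 CPM in Control (log2 fold change -0.26, limma adjusted p = 0.0983). Both were separated without passing the test. Insig2, the second INSIG gene (log2 fold change 0.02, 95% interval -0.17 to 0.20), and Nr1h2, which encodes the oxysterol receptor LXR-beta (0.03, 95% interval -0.12 to 0.17), overlapped between groups. Mlxipl, the gene of the carbohydrate-responsive factor ChREBP, was barely detected, at 0.991 to 1.34 CPM in CAP1-KO and 0.705 to 1.12 CPM in Control. Of the 21 genes in this list, 4 were separated downwards (Insig1, Srebf2, Scap and Pnpla3) and 1, Nfyc, upwards. That was near the 14.6% and 11.1% of all tested genes, and the list's median was -0.11. Without FF4, 6 of the 21 were called lower (Insig1, Nfya, Prkaa2, Rxra, Scap and Srebf2), and 3 with the female libraries only (Insig1, Nfya and Srebf2).

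**Figure D3:**
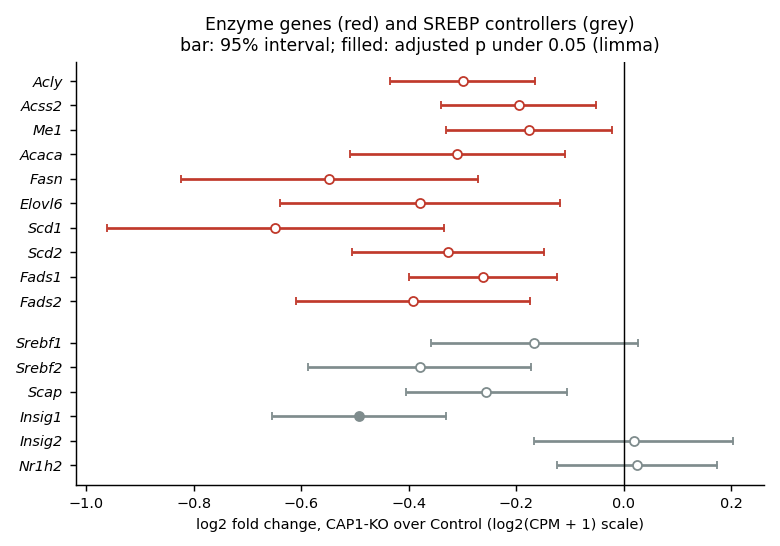
Log2 fold change of CAP1-KO over Control (horizontal axis, log2(CPM + 1) scale) for the 10 enzyme genes (red) and 6 genes of SREBP control (grey), with 95% intervals. The enzyme genes run between -0.65 (Scd1) and -0.18 (Me1), all as open symbols since none passed adjustment; Insig1 is filled.

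The sterol genes, best known as SREBP2 targets, were lower too. Of 21 tested, 7 were called lower (Fdps, Insig1, Hmgcs1, Dhcr7, Lss, Mvk and Stard4) and 0 higher, where 0.403% of all tested genes were called lower. The median log2 fold change was -0.44, and all 21 were negative, as were 51.7% of all tested genes. Complete separation downwards was seen in 20 of the 21, against 14.6% of all tested genes, so it was not particular to the enzyme genes. An unadjusted limma p under 0.05 was seen in 19, all lower, against 15.3%. The count was 0 without FCRE5, FF1 or FF2, with the Xist covariate and against FF4 alone, 1 without FCRE3, 3 with no filter, 11 without FCRE4 and with the female libraries only, and 18 without FF4. Hmgcs1 measured 659, 787 and 739 CPM in CAP1-KO, against 1036, 1036 and 1024 CPM in Control. Sqle, which encodes squalene epoxidase, did not pass (log2 fold change -0.44, limma adjusted p = 0.0869).

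The other lipid gene lists had medians between -0.09 and 0.14, and 0 members of the 5 remaining lists were called in either direction by limma. Beside the counts that follow, 14.6% of all tested genes were separated downwards and 11.1% upwards, and 15.3% were lower with an unadjusted p under 0.05. Among 14 tested genes of precursor supply and related synthesis the median was -0.02, with 4 separated downwards and 1 upwards (unadjusted p under 0.05 in 4 lower and 2 higher). Slc25a1, the mitochondrial citrate carrier that exports the substrate of Acly, measured 71.3, 70.4 and 71.5 CPM in CAP1-KO and 86.4, 82.4 and 80.9 CPM in Control (log2 fold change -0.22, limma adjusted p = 0.0686), and was chosen after its values were seen. Idh1 and Tkt, the list's most abundant genes, had log2 fold changes of -0.15 and -0.30 (limma adjusted p = 0.128 and 0.111). Among 17 other elongation and desaturation genes the median was 0.01 and 1, Fads3, was separated, the 1 gene with an unadjusted p under 0.05. Tecr and Hacd3, which complete each elongation cycle, overlapped between groups (-0.07 and -0.06).

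Genes of fatty acid activation and glycerolipid assembly (21 tested) had a median of -0.09, with 7 separated downwards and 0 upwards, and 8 lower with an unadjusted p under 0.05. Their most abundant members, Gpat4 and Agpat1, which attach fatty acids to the glycerol backbone, had log2 fold changes of 0.00 and -0.13 (limma adjusted p = 0.975 and 0.184). Uptake and binding genes (12 tested) had a median of -0.06 (unadjusted p under 0.05 in 4 lower and 1 higher). Fabp7 and Fabp5, fatty acid binding proteins of radial glia and neural cells, measured 555 ± 19.6 and 169 ± 10.1 CPM in CAP1-KO and 532 ± 47.4 and 174 ± 10.4 CPM in Control (SD, n = 3 each). Fatty acid oxidation genes (16 tested) had a median of 0.14, with 3 negative log2 fold changes. Unadjusted p was under 0.05 in 5, all higher, and 5 were separated upwards and 1 downwards. Hadha, of the mitochondrial trifunctional protein, measured 74.5 ± 2.38 CPM in CAP1-KO and 67.6 ± 1.92 CPM in Control (SD, n = 3 each; log2 fold change 0.14, limma adjusted p = 0.148).

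**Figure D4:**
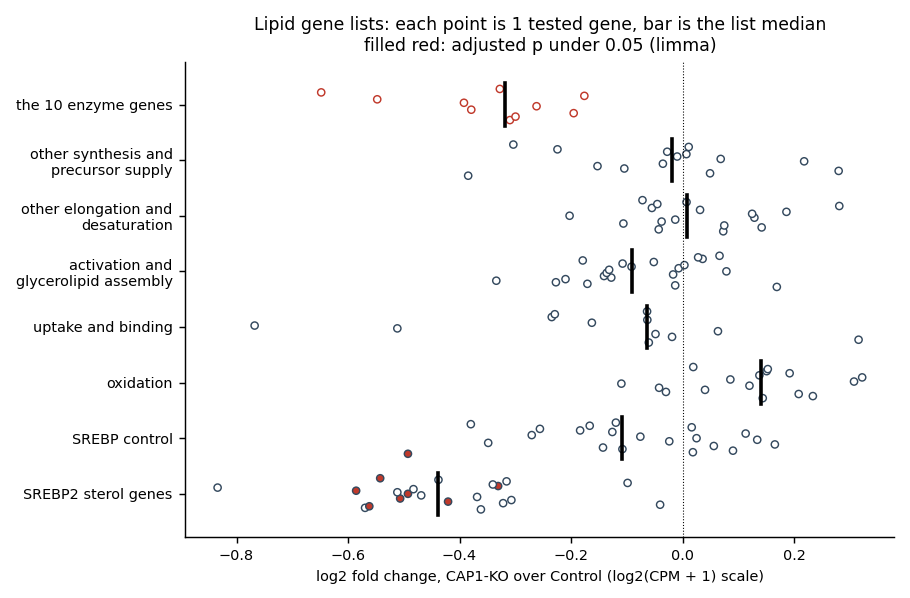
Log2 fold change of CAP1-KO over Control (horizontal axis) for every tested gene of 8 lipid gene lists, 1 point for each gene, with the list median as a bar. The 10 enzyme genes have a median of -0.32 and the sterol genes one of -0.44, while the oxidation genes have one of 0.14; filled points passed the test.

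How reads were divided between similar genes is not stated in the sources used here, which limits a few of the levels. In GENCODE transcripts, 0% of the 31-base stretches of Acly, Fasn and Fads1 also occur in another gene, 0.729% of those of Fads2 and 0.164% of those of Acss2. The share was 8.14% for Scd1, 6.81% for Scd2 and 6.41% for Elovl6, with Scd3 the main partner of both Scd genes. It was 33.4% for Acaca, mostly shared with the annotated gene Gm5182, and 30.0% for Me1, mostly with Gm7049. By this measure Acaca and Me1 are the most open to shared reads of the 10. The shares cover all annotated transcripts, Gm5182 and Gm7049 were not found by symbol among the deposited genes, and any effect on the levels was not measured. In the authors' deposited table, which comes from their own fit, all 10 enzyme genes have a negative log2 fold change, their FDR runs between 0.0603 (Acly and Fasn) and 0.288 (Me1), and 0 of 10 are under 0.05.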

How the data were processed

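Poly(A) RNA was sequenced from cerebral cortex in 3 CAP1-KO and 3 Control libraries. Per the submitters' processing notes, STAR and edgeR were used with GRCm38 and mm10; the sources used here do not give a read counter or annotation. The authors deposited expression as log2 values of normalized counts, per the file headers, and for CAP1-KO over Control their log2 fold change, F score, p-value and FDR. Columns carry the genotype but not the replicate numbers of the labels, so groups came from the names.

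All libraries shared 1 lowest value, an offset of 0.0584 CPM. With it removed, 100% of values lay within 0.05 of a whole read. The 13885 genes whose mean reached 1 CPM entered limma 3.58.1 (R 4.3.3) as log2(CPM + 1), with the trend option and no covariate; Benjamini-Hochberg adjustment covered all of them. Fold changes on that scale understate changes of low genes. Groups of 3 against 3 allow no exact permutation p below 0.1. Per the labels' protocols the libraries were stranded and came from cortices of embryos, n = 3 per group; litters and runs are not named there, so p-values measure the spread between these samples, part of which may be technical. No pair of replicates agreed within sampling noise (mean chi-square per gene at least 5.80). Counts carry no stated molecular identifiers.

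The members and gene lists were chosen with earlier results of these data known. Named genes are all members, Cap1, fixed controllers and sterol genes, and from each list up to 4 called genes or else the 2 most abundant; genes named beyond that were chosen after their values were seen, and some genes under the rule are not reported here. Lengths are merged exons of GENCODE M21 (GRCm38). Figures were drawn with matplotlib 3.10.9.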

Additional observations from a re-analysis of the deposited data

How the results depend on the processing

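All 10 enzyme genes kept a negative log2 fold change under all 15 alternatives, and 0 were called higher in any. Enzyme genes called lower numbered 5 with the female libraries only and 0 to 8 when 1 library was left out; other size factors, scaling to total reads, limma-voom, no filter, a pseudocount of 0.1, the deposited values, the Xist covariate and FF4 as the only Control library gave 0. Acss2 and Me1 were called in none. Over all genes, 56 were lower and 78 higher; 1185 and 626 with the female libraries only, 3 and 23 with the Xist covariate, 12 and 43 against FF4 alone, and 20 lower without a filter. Leaving out 1 library gave 3 (without FCRE5) to 2623 (without FF4) lower and 33 (without FCRE5) to 1299 (without FF4) higher. Insig2 and Nr1h2, close to 0, changed sign: Insig2 to -0.137 against FF4 alone and between -0.056 and 0.096 when 1 library was left out, and Nr1h2 between -0.011 and 0.081 when 1 library was left out. The causes were not tested. Scaling to total reads moved the median of all genes to 0.06 and that of the 10 to -0.25, with 10 of 10 negative. FF4 alone was chosen after seeing the data. No paired analysis was possible because the columns do not carry the replicate numbers of the labels. Groups of 3 are too small for a test of outlying samples. Member depth was 725 to 45130 reads per library.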
